A study of Mus musculus with 6 samples.

Results

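The kinesin superfamily comprises the motor proteins that use ATP to move along microtubules or to take their ends apart. Its genes were followed here in mouse embryonic fibroblasts. A gene was taken as a member where its symbol begins with Kif and a digit or is Kifc1, Kifc2 or Kifc3, and where it had a probe set annotated to it alone. This gave 40 kinesin genes of 18193 genes measured. The RefSeq gene table holds 41 such genes, and Kif19a was not analysed here. Kinesins named otherwise fall outside the rule, such as Cenpe, which is counted below among spindle and midzone partners. The rule used the names, not the measurements, but was set with earlier results of these data known.

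Most kinesins carry cargo toward the plus ends of microtubules at the cell periphery, and a few walk to the minus ends. Another set works mainly in dividing cells, where its members push spindle poles apart, capture and align chromosomes, shorten microtubules and build the midzone that guides cytokinesis. Genes of this mitotic set are known to be transcribed late in the cell cycle, whereas many transport kinesins are made in resting cells and neurons. By these roles, 13 members were grouped as mitotic, 15 as transport and 11 as acting in cilia, in Hedgehog signalling or on microtubule dynamics. Kif28 was left without a role.

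RNA was measured on 6 Affymetrix arrays, 3 of wild-type fibroblasts (MEF-WT) and 3 of fibroblasts labelled as a c-abl/arg knockout (MEF-DKO). Abl1 encodes the tyrosine kinase c-Abl and Abl2 its close relative Arg. Both groups are labelled as C57BL/6 cells from embryos at 14 days of gestation, male and female pooled, and were grown in medium with 10% heat-inactivated serum. The stated purpose was to learn how these kinases bear on transcription. The labels do not say whether replicates were separate cultures, embryos or clones. The p-values therefore rest on array-to-array spread that could be technical alone.

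The deposited values are probe set signals on a linear scale. The median over all values was 14.0, and a gene whose 2 group means were both at or below it is called dim here. The brightest Abl1 probe set read 184.8 ± 4.46 in wild type and 169.8 ± 8.22 in the knockout-labelled arrays (SD, n = 3 each; limma adjusted p = 0.107 over all probe sets), and the brightest Abl2 probe set 256.1 ± 9.30 and 254.1 ± 11.9 (adjusted p = 0.888). The 2 other Abl1 probe sets were called higher, from 16.05 to 22.9 (adjusted p = 0.00586) and, under the median signal, from 6.99 to 10.6 (adjusted p = 0.0012). The brightest was called lower on array medians (-0.21, adjusted p = 0.004) and on hybridization spikes (-0.35), and higher on poly-A spikes (0.34). Where these probes lie relative to the deleted parts was not analysed here, so they do not check the labels. Of 14 fibroblast markers, 9 were higher and 1 lower in the knockout-labelled arrays, with summed signals of 12925 to 13510 in wild type and 26068 to 27302. Over all genes, 24.2% were called higher and 35.5% lower. Vim read 5288 in wild type and 7306, Pdgfra read 9.99 and 1789, and the markers Thy1, Lum and Fap were dim in both groups. Summed signals of 6 epithelial markers were 61.4 to 62.4 in wild type and 46.5 to 53.4 in the knockout-labelled arrays, and those of 6 endothelial markers 42.9 to 51.5 and 40.2 to 45.6. In each of these 2 lists 5 markers were dim. Called lower were 3 epithelial markers, Epcam (24.6 to 15.9) and the dim Krt8 and Cldn4, and no endothelial marker was called. The sums were 87.4 to 91.5 and 163.4 to 174.8 for 8 macrophage and leukocyte markers, of which Lyz2 (9.11 to 72.4, adjusted p = 1.85e-09) and Cd68 (19.3 to 41.0, adjusted p = 2.76e-06) were called higher, while Ptprc and Tyrobp were dim in both groups. Each array correlated with its own group at 0.998 or more and with the other group at 0.905 or less across genes, which are not independent replicates.

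Differences below are knockout-labelled minus wild type on log2(signal + 16), a scale on which the changes of low signals come out too small. They come from limma fitted over all genes, two-sided, and a gene was called at a Benjamini-Hochberg adjusted p under 0.05. Signals of different genes come from different probes and are not set against each other.

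Of the 40 kinesin genes, 20 were called lower in the knockout-labelled arrays, 9 were called higher and 11 were not called. Over all genes, 35.5% were called lower and 24.2% higher. With a difference of at least 2-fold added, 12 kinesins were lower and 2 higher, where 8.77% and 7.0% of all genes were. In 30 of the 40 the signals of the groups did not overlap, as in 64.7% of all genes. The members split by role. Of the 13 mitotic kinesins, 11 fell, 10 of them at least 2-fold, and none rose. The 15 transport kinesins divided evenly, with 5 fallen, 5 risen and 5 not called. Of the 11 cilium, Hedgehog and microtubule-regulating kinesins, 4 fell, 4 rose and 3 were not called. The median log2 difference was -1.76 for the mitotic group, -0.021 for the transport group, -0.026 for the remaining group and -0.031 over all genes. The mean log2 level of the mitotic kinesins was 7.70 to 7.73 on the wild-type arrays and 6.17 to 6.32 on the knockout-labelled arrays, and that of the transport kinesins 6.90 to 6.96 and 6.73 to 6.80.

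**Figure D1:**
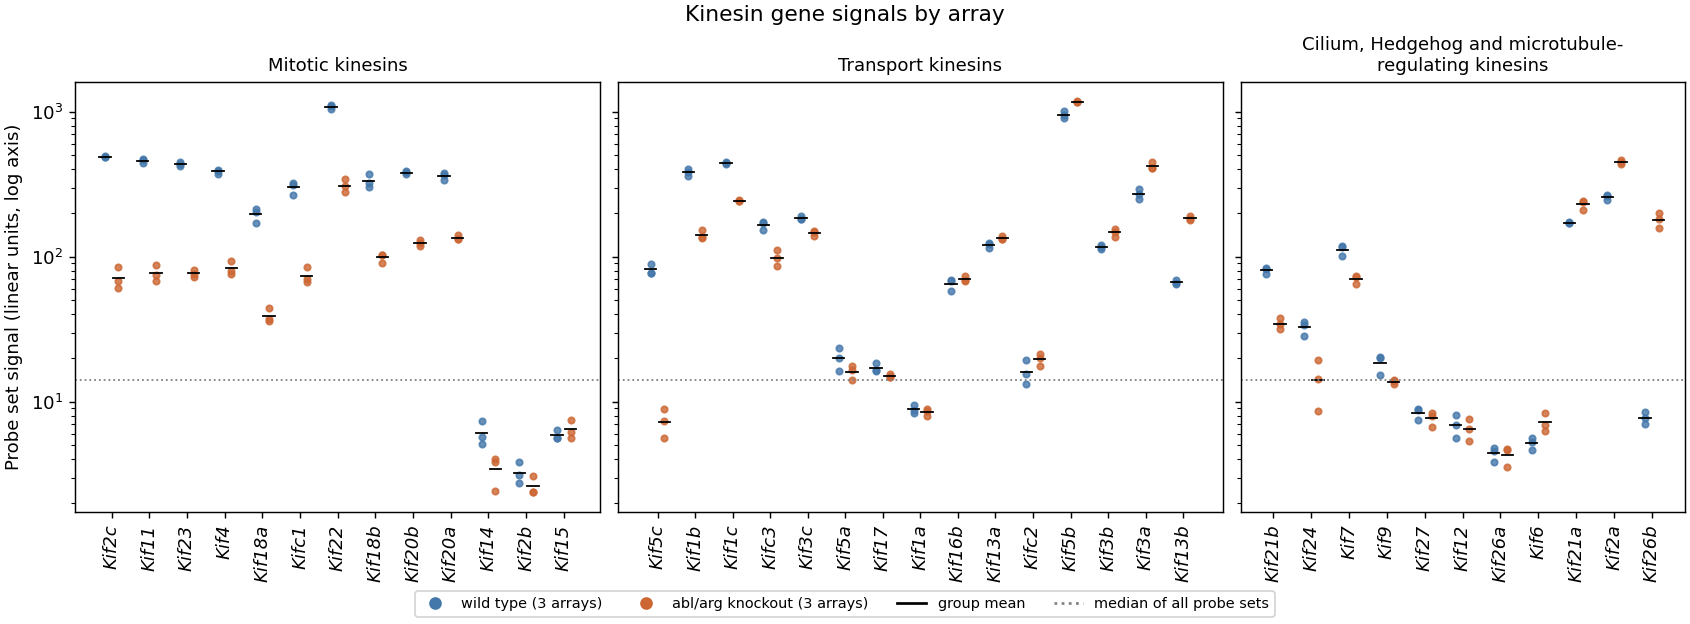
Signal of each kinesin gene with a role, so without Kif28 (linear units on a log axis) on the 3 wild-type (blue) and 3 knockout-labelled (orange) arrays, with bars for group means and a dotted line at the median of all values (14.0). The 10 mitotic kinesins on the left stand clearly apart between the groups, while Kif14, Kif2b and Kif15 lie under the dotted line in both.

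Promoters of the mitotic kinesins are shown because the genes moved together. Late cell cycle genes are often transcribed through the cell cycle homology region, a short element with the core TTTGAA that the LIN54 subunit of the MuvB complex binds near the start site, and through CCAAT boxes bound by NF-Y. RefSeq promoter windows of the mouse assembly GRCm38.p6, from 250 bases before to 50 bases after a start, were found for 32 of the 40 genes. Both strands were searched for TTTGAA and CCAAT, which can share an end letter. Below are the 100 bases before and 30 bases after the start, on the gene's strand, of the called mitotic kinesins with TTTGAA within 50 bases of the start, then of 2 genes that rose. Capitals mark TTTGAA or CCAAT on either strand.
Kif11 (chr19:37376282-37376411, plus strand): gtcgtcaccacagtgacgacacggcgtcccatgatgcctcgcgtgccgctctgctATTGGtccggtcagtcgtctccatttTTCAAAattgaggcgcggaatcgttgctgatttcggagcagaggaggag
Kif22 (chr7:127042391-127042520, minus strand): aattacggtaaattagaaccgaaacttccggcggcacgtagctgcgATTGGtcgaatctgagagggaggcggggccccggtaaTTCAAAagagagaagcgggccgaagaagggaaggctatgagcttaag
Kif23 (chr9:61946770-61946899, minus strand): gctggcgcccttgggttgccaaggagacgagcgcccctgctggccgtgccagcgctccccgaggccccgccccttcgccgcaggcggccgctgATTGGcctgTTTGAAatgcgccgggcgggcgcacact
Kif18b (chr11:102925095-102925224, minus strand): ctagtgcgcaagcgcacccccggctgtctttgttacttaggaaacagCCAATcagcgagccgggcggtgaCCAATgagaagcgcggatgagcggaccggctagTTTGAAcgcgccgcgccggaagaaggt
Kif20b (chr19:34922258-34922387, plus strand): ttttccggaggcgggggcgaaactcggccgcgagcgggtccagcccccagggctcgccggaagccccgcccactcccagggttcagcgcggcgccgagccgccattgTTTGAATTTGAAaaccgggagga
Kif4 (chrX:100625965-100626094, plus strand): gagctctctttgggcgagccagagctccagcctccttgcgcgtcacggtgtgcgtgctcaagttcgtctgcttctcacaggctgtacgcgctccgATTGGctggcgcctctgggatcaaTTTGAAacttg
Kifc1 (chr17:33890604-33890733, minus strand): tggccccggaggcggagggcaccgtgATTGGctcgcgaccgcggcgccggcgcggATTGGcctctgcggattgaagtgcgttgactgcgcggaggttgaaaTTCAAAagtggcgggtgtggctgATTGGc
Kif26b (chr1:178529025-178529154, plus strand): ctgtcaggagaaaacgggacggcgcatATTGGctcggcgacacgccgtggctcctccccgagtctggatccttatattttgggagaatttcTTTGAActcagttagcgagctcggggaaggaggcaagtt
Kif3a (chr11:53567269-53567398, plus strand): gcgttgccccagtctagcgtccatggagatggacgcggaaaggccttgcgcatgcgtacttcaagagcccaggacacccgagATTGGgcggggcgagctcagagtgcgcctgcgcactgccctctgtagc

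TTTGAA was present in 10 of the 12 mitotic windows, or 83.3%, and in 1 of 12 transport windows, or 8.33%, while 17.9% of all 32851 promoter windows held it. Within 50 bases of the start it was present in 8 of the 12 mitotic windows, against 4.94% of all windows. Positions give the leftmost base of a match in either orientation on the gene's strand, with 1 as the first transcribed base and no position 0. Within 50 bases of the start, TTTGAA lay at -19 in Kif11 and Kif15, -17 in Kif22, 2 in Kifc1, 3 in Kif23 and 4 in Kif18b. It lay at 8 and 14 in Kif20b and at 20 in Kif4. In Kif2c and Kif14 it lay farther away, at -103 and -228, and the Kif18a and Kif2b windows held none. CCAAT was in 8 of the 12 mitotic windows and in 37.4% of all windows. The E2F word was in 2 of the 12, those of Kif15 and Kif18a, and in 1.38% of all windows. By gene, TTTGAA was in a window of 9 of the 10 fallen mitotic kinesins with one, of 0 of the 7 other fallen kinesins, of 1 of the 7 risen kinesins and of 3 of the 8 that were not called. The risen one is Kif26b, at position -9, and Kif15 is among those not called. In genes of any kind that were lower at least 2-fold, 14.3% of windows held TTTGAA and 6.59% held it within 50 bases of the start. The shares were 13.4% and 3.42% over all genes tested, and 12.9% and 3.43% for genes higher at least 2-fold. A match is a run of letters, and binding was not measured here.

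The mitotic motors that build and hold the bipolar spindle fell. Kif11, the tetrameric motor Eg5 that slides antiparallel microtubules apart, read 475.4, 461.9 and 443.2 in wild type and 87.7, 75.1 and 68.2 in the knockout-labelled arrays. The lowest wild-type array was thus far above the highest knockout-labelled one, and the log2 difference was -2.36 ± 0.07 (SE; limma adjusted p = 2.21e-11). All 3 Kif11 probe sets were called lower. Kifc1, the minus-end motor that focuses spindle poles, read 324.3, 313.3 and 267.2 against 85.2, 69.7 and 67.1 (-1.82 ± 0.09, adjusted p = 1.49e-09). Its only probe set ends in s, which marks probes shared by several transcripts, and the near-identical gene Kifc5b has 1 other, and signal shared between the 2 genes was not tested. Kif15, a motor that can back up Kif11 at the spindle, had 1 dim probe set, with 5.62 to 6.38 in wild type and 5.61 to 7.52 in the knockout-labelled arrays. These ranges overlapped, and Kif15 was not called (adjusted p = 0.392).

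Motors that handle chromosomes and microtubule ends fell as well. Kif2c, the depolymerase MCAK that corrects faulty kinetochore attachments, had the lowest log2 difference of all members on this scale. It read 490.7, 485.3 and 493.9 in wild type and 84.3, 60.8 and 67.6 in the knockout-labelled arrays, a log2 difference of -2.55 ± 0.08 (SE; adjusted p = 3.65e-11). The groups were 6.91-fold apart in mean signal and did not overlap. That rank was lost in other settings: Kif5c was lower with an offset of 1 (-3.34 against -2.78 for Kif2c), and Kif11 with probe sets averaged (-2.13 against -1.63). Kif2c lies on chromosome 4, where 365 bright genes (mean log2 level above 7) had a median difference of -0.72, against -0.078 for bright genes of all chromosomes. With each chromosome's bright genes shifted so that their median met that of all bright genes, a step that left other genes as they were, Kif2c was at -1.90 and Kif11 at -2.34. Kif18a, which dampens chromosome oscillations at the metaphase plate, read 202.1, 212.9 and 172.1 against 44.3, 37.0 and 36.1 (-1.94 ± 0.09). Its relative Kif18b, which acts on astral microtubules, read 323.1, 304.5 and 371.0 against 102.4, 103.2 and 90.8 (-1.60 ± 0.07). Both stayed without overlap between groups. Kif22, the chromokinesin Kid that binds chromosome arms, went from 1083 ± 38.0 to 309.2 ± 32.1 (SD, n = 3 each; -1.76 ± 0.06), and its 3 probe sets ran from -2.03 to -1.76. Kif4, the chromokinesin that also organizes the midzone, read 372.6, 392.6 and 398.2 against 92.9, 79.9 and 76.5 (-2.03 ± 0.07). Kif2b, a kinesin-13 studied at kinetochores in human cells, was dim, with 2.76 to 3.84 against 2.38 to 3.06 (adjusted p = 0.117).

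Kinesins of cytokinesis followed the same direction. Kif23, the MKLP1 subunit of the centralspindlin complex, read 452.5, 421.4 and 437.3 in wild type and 80.9, 72.5 and 76.4 in the knockout-labelled arrays (-2.29 ± 0.05, SE; adjusted p = 3e-12). Kif20a, the MKLP2 motor that brings the chromosomal passenger complex to the midzone, read 376.4, 365.6 and 336.9 against 141.8, 132.4 and 132.7 (-1.31 ± 0.05). Kif20b, another midzone kinesin, read 370.4, 380.9 and 390.4 against 131.1, 124.2 and 118.0 (-1.50 ± 0.05). In each of these 3 genes every knockout-labelled array lay below every wild-type array. Kif14, a midbody kinesin, was dim: its single probe set read 5.15 to 7.34 against 2.41 to 4.0, and it was called lower at -0.19 ± 0.04 (adjusted p = 0.00134). That value lies near the floor, and the call was lost with arrays scaled on poly-A spike controls (-0.075, adjusted p = 0.0534).

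**Figure D2:**
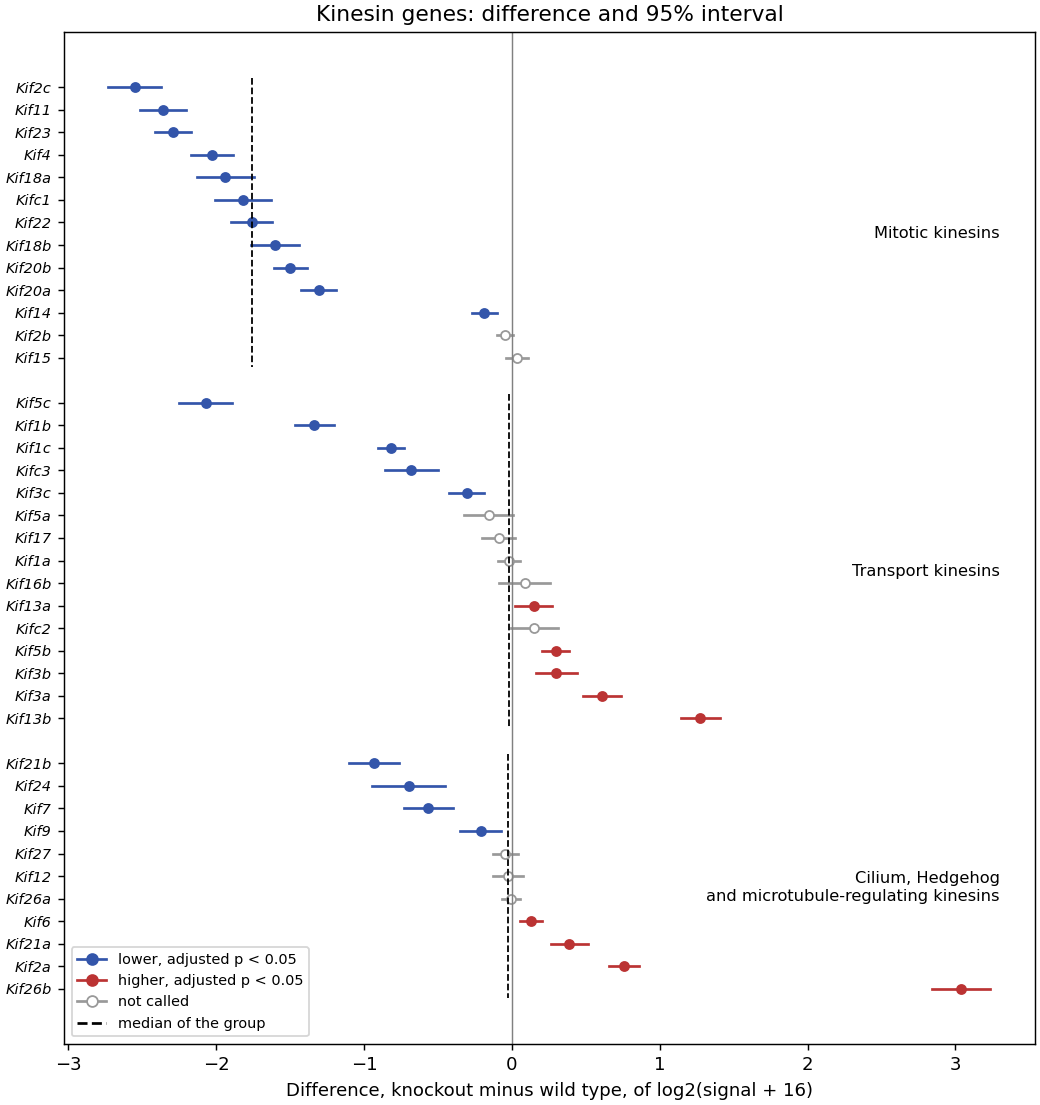
Difference of log2(signal + 16), knockout-labelled minus wild type, for each kinesin gene with a role, grouped by it, with 95% intervals from limma (n = 3 arrays each) and a dashed line at the median of each group. The mitotic group runs from -2.55 for Kif2c to 0.036 for Kif15, and the transport group from -2.07 for Kif5c to 1.27 for Kif13b.

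Partners of the mitotic kinesins moved with them. Of 20 genes of spindle and midzone partners, 20 fell, 16 at least 2-fold, with a median of -1.81. Over all genes, 35.5% were called lower, and 8.77% were lower at least 2-fold. The list holds Cenpe, a kinesin that the symbol rule does not take (194.0 to 92.6, -0.95, limma adjusted p = 2.45e-08). Among the partners, Aurkb, the kinase of the chromosomal passenger complex, was at -2.84 and Cdca8, the borealin subunit of that complex, at -2.70. Ndc80, of the kinetochore's microtubule-binding complex, was at -2.45, and Nusap1, a spindle microtubule binder, at -2.43. Of 19 measured proliferation markers, 19 fell (median -1.66), led by the mitotic cyclin Ccnb2 (-3.26), the replication factor Cdc45 (-2.72), the checkpoint kinase Bub1 (-2.61) and the helicase subunit Mcm5 (-2.49). Their summed signal was 36203 to 37030 on the wild-type arrays and 11980 to 13620 on the knockout-labelled arrays. In cultures measured in bulk, fewer dividing cells and less RNA per dividing cell cannot be told apart, and the part of the proliferation genes in the kinesin result was not tested.

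Among 19 genes of transcription factors that act on mitotic genes, 14 fell and 3 rose (median -0.69), where 35.5% and 24.2% of all genes did. The atypical E2F genes E2f7 and E2f8 were at -2.28 and -2.01, and the pocket protein gene Rbl1, whose product p107 joins the repressive DREAM complex, at -2.19. Lin9, a MuvB subunit, was at -1.43, and Lin54, the subunit that contacts TTTGAA, at -1.39. Mybl2 was at -1.26 and Foxm1 at -0.88. The 3 that rose were the pocket protein genes Rbl2 (0.79) and Rb1 (0.52) and E2f3 (0.34). Lin54, Mybl2, Foxm1 and the 3 risen genes were named after their values were seen.

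The transport kinesins had no common direction, and close relatives differed. In the kinesin-1 family, the conventional motor of vesicles and mitochondria, Kif5c is known mainly from neurons. Kif5c read 77.8, 89.8 and 77.8 in wild type and 5.58, 7.39 and 8.92 in the knockout-labelled arrays. It was above the array median on each wild-type array and under it on each knockout-labelled one, 11.2-fold apart in mean signal (log2 difference -2.07 ± 0.08, SE; adjusted p = 2.55e-10). The other Kif5c probe set that was not dim fell by 1.26 on the log2 scale. The size depended on the offset, from -1.03 with 64 to -3.34 with 1, and was -0.91 with probe sets averaged. Of 10 neuron markers, 3 fell and 1 rose, where 35.5% and 24.2% of all genes did. Map2 (101.1 to 30.3, -1.34), Tubb3 (52.9 to 8.14, -1.50) and the dim Nefl (3.41 to 2.67) fell, and Syt1 rose (9.93 to 15.1, 0.26). In both groups 6 were dim, Snap25, Stmn2 and Dcx among them. The list's summed signal was 204.6 to 222.5 in wild type and 92.5 to 99.9 in the knockout-labelled arrays, and its part in the Kif5c result was not tested. Kif5b, the form made in most cells, went the other way, with 1004, 943.7 and 904.4 against 1177, 1171 and 1161 (0.30 ± 0.04, adjusted p = 5.67e-05). Of its 6 probe sets, 3 were called higher and none lower. Bright genes on its chromosome, 18, had a median of 0.25, and Kif5b was at -0.031 with chromosomes centred and 0.036 under hybridization spike scaling, uncalled in both. Kif5a, the other neuronal form, read 16.2 to 23.4 against 14.2 to 17.6 and was not called (-0.16, adjusted p = 0.0956). It was called lower on quantiles (adjusted p = 0.027), array medians (0.0237) and hybridization spikes (0.00377).

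In the kinesin-3 family, motors of vesicles and endosomes, Kif1b and Kif1c fell while Kif13b rose. Kif1c, a motor of integrin-bearing vesicles and of the Golgi, read 442.2, 449.0 and 435.4 in wild type and 241.3, 244.0 and 246.5 in the knockout-labelled arrays (-0.82 ± 0.04, adjusted p = 2.48e-09). Its 4 probe sets were all called lower. Kif13b, also known as GAKIN, a carrier of phosphoinositides and membrane scaffolds, read 64.5, 69.2 and 66.4 against 182.3, 178.2 and 191.2. The knockout-labelled arrays were 2.76-fold above wild type without overlap (1.27 ± 0.06, adjusted p = 1.45e-09). Bright genes on its chromosome, 14, had a median of 0.47, and with chromosomes centred it was at 0.73. Of its 4 probe sets 3 were called higher, and averaged they gave 0.55. Kif13a read 115.4 to 123.6 against 132.6 to 139.7 and was called higher at 0.15 ± 0.06 (adjusted p = 0.0453). That call was lost on leaving out any 1 of the 6 arrays (adjusted p = 0.0571 to 0.142) and its sign turned with chromosomes centred (-0.27). Kif16b, an endosome motor (adjusted p = 0.368), and Kif1a, a motor of synaptic vesicle precursors (adjusted p = 0.635), were not called.

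Kif1b held opposite changes within 1 gene. Its brightest probe set read 361.2, 385.6 and 400.9 in wild type and 137.6, 134.3 and 153.9 in the knockout-labelled arrays (-1.34 ± 0.06, adjusted p = 8.09e-10). In the fit over all probe sets, 4 of its 7 probe sets were called lower (-1.34 to -0.59), 2 were called higher (0.22 and 0.39) and 1 was not called. Over all probe sets, 27.2% were called lower and 24.9% higher. The gene is known to give a short and a long protein with different tails, which bind different cargo. Which transcripts each probe set reads was not analysed here. With probe sets averaged Kif1b was at -0.50, and with chromosome 4 centred at -0.69.

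**Figure D3:**
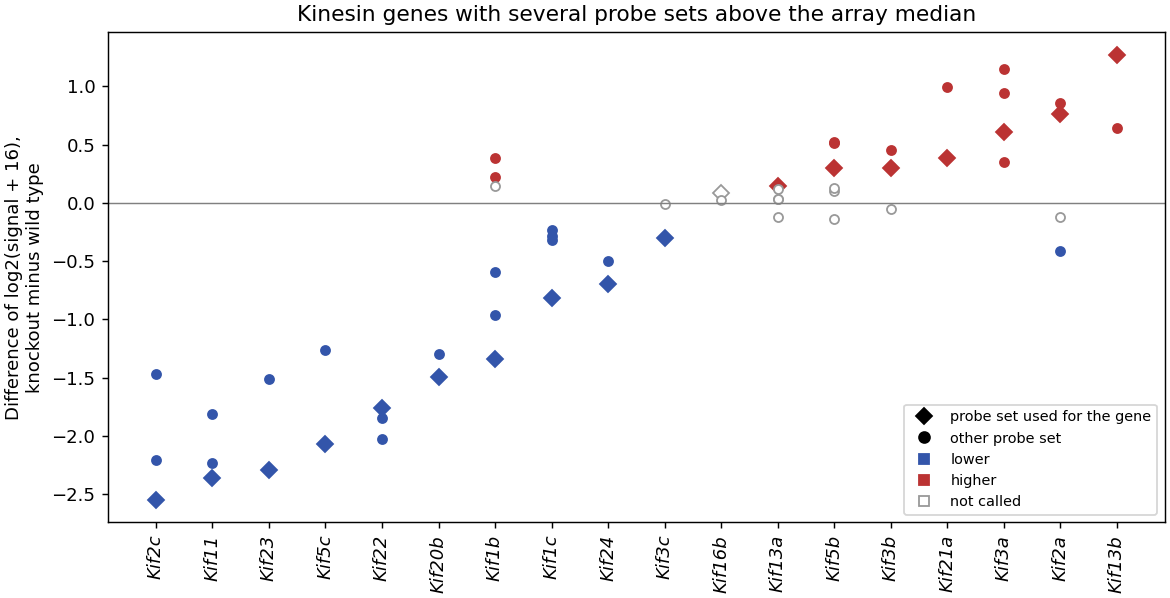
Difference of log2(signal + 16), knockout-labelled minus wild type, of each probe set with a group mean above the median signal, for the 18 kinesin genes with more than 1 such probe set. Diamonds mark the probe set that stands for the gene, and filled symbols are called in the fit over all probe sets. Kif1b and Kif2a have probe sets called in both directions.

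The kinesin-2 family, which drives intraflagellar transport in cilia as well as organelle movement, divided between its subunits. Kif3a, the motor subunit common to the heterotrimer, read 250.5, 269.4 and 292.5 in wild type and 406.6, 408.9 and 448.3 in the knockout-labelled arrays (0.61 ± 0.06, adjusted p = 1.5e-06). Its 4 probe sets were called higher, from 0.35 to 1.15. Its partner Kif3b read 120.6, 112.6 and 116.6 against 156.4, 137.4 and 148.7 (0.30 ± 0.06), and 3 of its 4 probe sets were called higher. Kifap3, the non-motor subunit of the same trimer, rose by 0.73 on the log2 scale. Kif3c, which can replace Kif3b beside Kif3a, fell from 184.2 ± 6.06 to 146.2 ± 5.80 (SD, n = 3 each; -0.30 ± 0.05, adjusted p = 0.000331). Its other probe set, also not dim, read 27.4 against 27.0 and was not called (-0.012, limma adjusted p = 0.915 over all probe sets). The direction of Kif3c depended on the scaling, at 0.15 and uncalled with poly-A spikes as the scale, and it was at -0.16 with chromosomes centred. Kif3b kept its direction but was not called with hybridization spikes (0.066, adjusted p = 0.437). Kif17, the homodimeric relative, read 16.2 to 18.4 against 14.9 to 15.6. These ranges did not overlap, but Kif17 was not called (-0.088, adjusted p = 0.157). Its call depended on the scaling: it was called lower on quantiles (adjusted p = 0.0277), array medians (0.0297) and hybridization spikes (0.00551), and higher on poly-A spikes (0.16, adjusted p = 0.0418). The 2 other Kif17 probe sets, both dim, were called lower in the fit over all probe sets (-0.22, adjusted p = 0.00152, and -0.19, adjusted p = 0.00587).

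Of the 2 minus-end transport motors, Kifc3, which acts at the Golgi and at cell junctions, read 153.6, 173.4 and 172.0 in wild type against 97.6, 85.9 and 110.8 (-0.68 ± 0.08, adjusted p = 1.05e-05). Bright genes on its chromosome, 8, had a median of -0.49, and with chromosomes centred Kifc3 was at -0.26 (adjusted p = 0.013). Kifc2, described in neurons, read 13.4 to 19.5 against 17.6 to 21.2 and was not called (adjusted p = 0.0955).

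Genes that serve transport kinesins were likewise mixed, in a series where 24.2% of all genes were called higher and 35.5% lower. Of 17 measured cargo adaptors and light chains, 7 rose and 6 fell (median 0.027). Klc3, a kinesin-1 light chain, was at -1.86, the largest change in the list. The JNK scaffold gene Mapk8ip1 (-0.73) and Trak1, the mitochondrial adaptor (-0.66), fell. With the x, s and a types of probe set left out, Mapk8ip1 was at -0.087 (adjusted p = 0.186), and Trak1 was not called under poly-A spike scaling (-0.21, adjusted p = 0.0522). Of 20 measured genes of cytoplasmic dynein and dynactin, the minus-end motor and its activator, 9 rose and 8 fell (median 0.036). The largest changes on this scale were in Dynll2, a light chain (1.14), Dctn2 (1.08) and Dctn5 (0.95), of dynactin, and Dynlt3, another light chain (-1.06). With the same types left out, Dynll2 turned to -0.49.

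**Figure D4:**
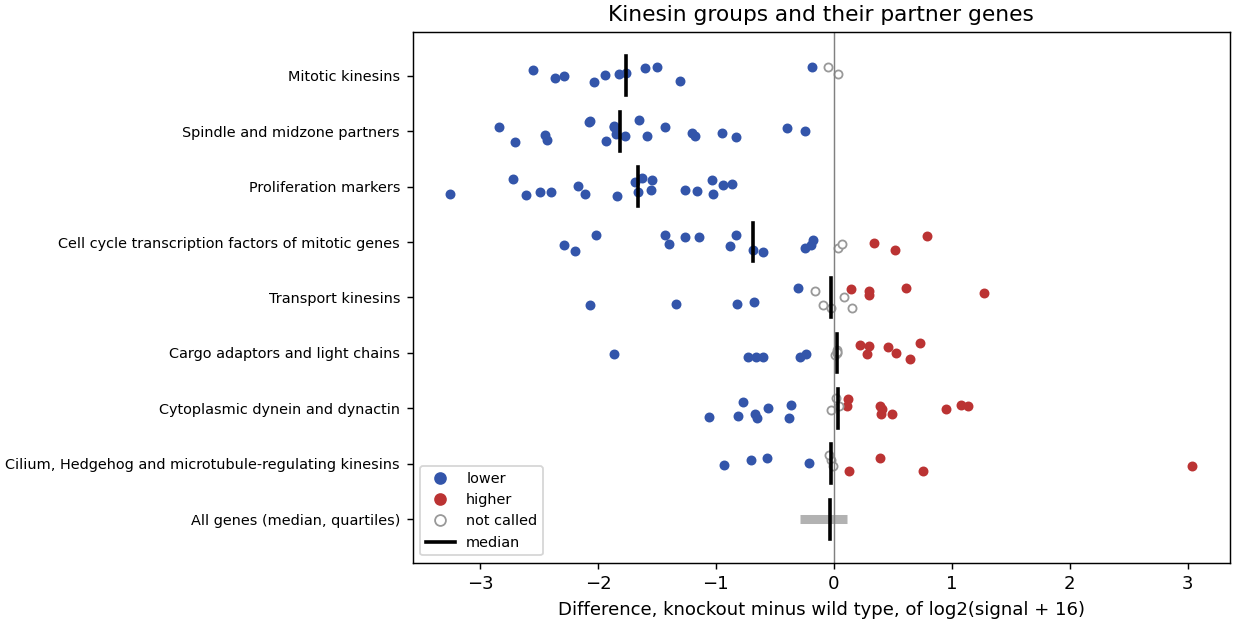
Difference of log2(signal + 16), knockout-labelled minus wild type, of each measured gene in the kinesin groups and in the lists of partner genes, filled where called, with a bar at the list median and, at the bottom, the median and quartiles of all 18193 genes (-0.28 to 0.11). The mitotic kinesins, the spindle partners and the proliferation markers lie to the left, with medians of -1.76, -1.81 and -1.66.

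Kif26b had the largest rise of any kinesin in each setting run, and the largest change in either direction except with an offset of 64, where Kif2c was at -2.04. It is a kinesin-11 protein that lacks motor activity and acts in adhesion and polarity of mesenchymal cells, known from kidney development and from Wnt5a signalling. Kif26b read 8.45, 6.97 and 7.70 in wild type and 200, 182.3 and 157.3 in the knockout-labelled arrays. All wild-type values were under the array median of 14.0 and all others far above it, 23.3-fold apart in mean signal (log2 difference 3.04 ± 0.09, SE; adjusted p = 1.8e-11). It has 1 probe set, and its difference ran from 1.76 with an offset of 64 to 4.37 with an offset of 1. Its relative Kif26a was dim and not called (4.40 against 4.32).

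Kinesins that act on microtubule ends rather than on cargo changed in both directions. Kif2a, which depolymerizes microtubules at spindle poles and in growing neurites, read 264.0, 266.2 and 246.6 in wild type and 449.6, 462.4 and 435.8 in the knockout-labelled arrays (0.76 ± 0.05, adjusted p = 1.62e-08). This was opposite to Kif2c of the same family. Of the 5 Kif2a probe sets, 2 were called higher (0.76 and 0.86), 1 lower (-0.41) and 2 were not called, and averaged they gave 0.21. Bright genes on its chromosome, 13, had a median of 0.34, and with chromosomes centred Kif2a was at 0.34. Kif21a, which limits microtubule growth, read 171.6, 171.5 and 172.9 against 211.2, 239.8 and 240.6 (0.39 ± 0.06), and another Kif21a probe set was at 0.996. Its call was lost under hybridization spike scaling (0.14, adjusted p = 0.0719). Kif21b, a relative known from neurons and immune cells, read 82.2, 76.2 and 83.4 against 37.5, 31.9 and 34.4 (-0.93 ± 0.08, adjusted p = 2.93e-07), so that the 2 Kif21 genes moved apart.

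Among kinesins of cilia and Hedgehog signalling, Kif7, which organizes the tip of the primary cilium and controls Gli factors, read 101.2, 116.7 and 117.8 in wild type and 72.0, 73.6 and 65.4 in the knockout-labelled arrays (-0.57 ± 0.08, adjusted p = 2.86e-05). Under poly-A spike scaling it was not called (-0.14, adjusted p = 0.223). Kif24, a depolymerase that restrains cilium formation, read 28.4, 35.2 and 34.0 against 19.5, 14.4 and 8.65 (-0.70 ± 0.11, adjusted p = 0.000142). It lies on chromosome 4, whose bright genes had a median of -0.72, and is itself not bright, so centring left it as it was. Kif9 and Kif6, kinesins of motile cilia, gave small values: Kif9 read 15.2 to 20.3 against 13.2 to 14.1 (-0.21 ± 0.06), and Kif6 was dim in both groups (4.64 to 5.65 against 6.32 to 8.36). Kif6 was called higher near the floor (0.13 ± 0.04, adjusted p = 0.00663). Of the 7 members of the cilium, Hedgehog and microtubule-regulating group that were not dim, 4 fell and 3 rose. The Kif9 call was lost without wild-type array 1 or 2 (adjusted p = 0.0509 and 0.0522). Of 8 ciliated cell markers 6 were dim, and the summed signal of the 8 was 61.8 to 66.8 in wild type and 62.4 to 71.5 in the knockout-labelled arrays. Of the 8, 1 was called higher (Ccdc39, 4.58 to 14.5) and 2 lower (Foxj1, 16.3 to 13.4, and Rsph1, 13.5 to 11.1). Kif12, Kif27 and Kif28 were dim and not called.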

How the data were processed

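The authors deposited probe set intensities of 6 arrays on a linear scale; MAS5 is the tool named in the submitters' processing notes, with no version or scaling target. Biotinylated cRNA was made from 6 µg of RNA, per the labels' protocols. Array medians were 13.4 to 14.7. The platform annotation named 34945 of 45101 probe sets with 1 gene symbol, and 34741 of these took the current symbol through the Entrez number in the RefSeq table of GRCm38.p6. For a gene with several probe sets, the one with the highest mean log2(signal + 16) over the 6 arrays was used.

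Tests used lmFit and eBayes with trend (limma 3.58.1, R 4.3.3), adjusted over all 18193 genes, after a test of the fit on simulated data. Single probe sets were tested in a separate fit that left out only 64 controls. No detection calls were used, and the number of arrays limits the precision. Roles and lists were described by counts and medians. Every member by the symbol rule was named, and in each partner list up to 4 genes with the largest differences past the threshold. Members, roles, lists and alternatives were chosen with earlier results of these data known. Alternatives were other offsets, scalings, probe set rules, fits and arrays left out; centring bright genes by chromosome was added after seeing the data. Figures were drawn with matplotlib 3.10.9.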

Additional observations from a re-analysis of the deposited data

How the results depend on the processing

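The number of mitotic kinesins that fell was 9 to 12 under every alternative run, and 11 on leaving out each array. It was 9 with the x, s and a types of probe set left out, where Kifc1 and Kif20a had no probe set. It was 10 with dim genes, Kif14 among them, left out. The median difference of the mitotic group, -1.76, was -1.33 with an offset of 64 and -1.31 with probe sets averaged. It was -1.84 with the x, s and a types of probe set left out and -1.88 with dim genes left out. With Kif2a counted as mitotic it was -1.68. By scaling it was -1.86 on array medians, -1.28 on poly-A spikes, -2.02 on hybridization spikes and -1.69 with chromosomes centred, and it ran from -1.83 to -1.69 on leaving out each array. The transport group has no settled direction: its median of -0.021 was -0.052 with an offset of 1, -0.053 with those types left out, 0.025 with probe sets averaged, -0.058 on array medians, 0.16 on poly-A spikes, -0.13 on hybridization spikes and -0.088 with chromosomes centred. Risen transport kinesins, 5 by the fit reported, numbered 9 on poly-A spikes, 2 on hybridization spikes and 3 with chromosomes centred, and the 5 that fell numbered 8 on hybridization spikes, 7 on quantiles and on array medians (with Kif5a and Kif17) and 4 on poly-A spikes. The median of all genes was 0.12 on poly-A and -0.12 on hybridization spikes, and rises made up 77.8% and 22.0% of the calls in place of 40.6%. Sign changes are listed here where the gene was called in the fit reported or in the alternative. Under poly-A spike scaling the sign turned for Kif9 (0.034), Kif27 (0.13), Kif12 (0.12), Kif26a (0.10), Kif3c (0.15), Kif17 (0.16), Kif1a (0.16), Abl1 (0.34) and Abl2 (0.46). It turned for Kif13a on hybridization spikes (-0.088) and with chromosomes centred (-0.27), where Kif5b was at -0.031, for Abl1 with probe sets averaged (0.13) and for Dynll2 with the x, s and a types left out (-0.49). The causes were not tested beyond the construction of each alternative.

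The labels do not say what samples with the same replicate number share. The correlations of their deviations from the group means were 0.038, 0.114 and 0.165. Pairs with different numbers gave -0.131 to 0.020, so each array correlated best with its own number. Whether a batch was shared by number was not tested. With replicate number as a block, 10935 genes were called in place of 10866, and among kinesins only the Kif13a call was lost (adjusted p = 0.0541). Signals under the array median limit what can be said of the 9 dim kinesins.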
